A study of Mus musculus with 4 samples.

Results

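The translation factors of mouse colon epithelium are described here: the initiation factors eIF1 to eIF6, the elongation factors eEF1 and eEF2, and the release factors. They were chosen by gene symbol, without the eIF2 kinases and without the hypusinated factor eIF5A and its paralogue, and the pattern gave 59 of the 25796 genes listed in the deposited table. The rule reads symbols only, and the transcript with the highest mean over the libraries stands for each gene. Among the 59, the symbol pattern also takes in Eef1akmt1, a methyltransferase of eEF1A that is no factor itself, the eIF4E-binding proteins and the eIF1A-domain protein Eif1ad.

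Protein synthesis begins when eIF2 brings initiator tRNA to the small ribosomal subunit, which eIF3, eIF1 and eIF1A prepare for scanning, while the eIF4F complex ties it to the mRNA cap. eIF5 and eIF5B then allow the large subunit to join, eEF1A delivers each aminoacyl-tRNA, eEF2 moves the ribosome along by a codon, and eRF1 with eRF3 ends the chain at a stop codon. In the colon the crypt cells renew the epithelium continuously and so make much new protein. The m6A reader Ythdf1 has been linked to the translation of m6A-marked mRNAs.

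The study has 2 libraries labelled Ythdf1 KO and 2 labelled WT, all of total RNA from epithelial cells released from mouse colon with EDTA. All 4 are inputs of an m6A immunoprecipitation, that is, RNA taken before the antibody step. The labels give no strain, age, sex or design of the knockout, and nothing in them ties a library to its own mouse. The p-values therefore cover the spread among these 4 libraries, part of which could be technical. The comparison asks which mRNAs differ in level between the labelled groups, and protein and translation itself were not measured. In bulk RNA, fewer cells of a type and less RNA per cell cannot be told apart.

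Ythdf1 RNA itself was not low in the libraries labelled KO. Ythdf1 stood at 1752 and 1737 normalised read counts in the libraries labelled KO 1 and KO 2, against 1088 and 775 in WT 1 and WT 2 (limma-trend log2 difference 0.92 ± 0.28 SE, adjusted p = 0.759). The authors' own comparison, as deposited, also had this gene higher in the libraries labelled KO, with a log2 fold change of 0.91 and q = 0.0145. A whole-transcript level does not show whether protein was made, so every direction below follows the labels. Depth on the kept transcripts was 25936859 and 30951138 reads in KO 1 and KO 2, against 21686140 and 24576164 in WT 1 and WT 2. This takes the lowest value above 0 in each library as 1 read. Pearson's correlation of log2 values over 23116 genes was 0.713 between the libraries labelled KO and 0.690 between the WT libraries, and 0.667 to 0.712 across the labels. Colon epithelium markers were high in every library: the 10 listed genes, among them Epcam, Krt8 and Vil1, summed to 336446 and 398661 in the libraries labelled KO and to 326211 and 360526 in WT. The summed level of 9 leukocyte markers was 948 and 540 in the libraries labelled KO, against 1652 and 1273 in WT, with Cd4 and Lyz2 at 0 in both libraries labelled KO. Stromal and vascular markers summed to 2594 and 1710 in the libraries labelled KO, against 2109 and 3822 in WT. The 10 markers of proliferating cells summed to 16833 and 19024 in the libraries labelled KO, against 12133 and 15107 in WT. The largest part of each sum was Mki67, at 9025 and 11002 in the libraries labelled KO, against 6489 and 8244.5 in WT. Of the 10, 8 lay above 0 in log2 difference, while Pcna and Cdk1 lay below. Cdk1 stood at 218 and 92.6 in the libraries labelled KO, against 333 and 286 in WT. The part of these marker shifts in the values below was not tested.

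No translation factor passed the test. With limma-trend on log2(normalised read count + 1) over all 23116 genes tested, 0 of 59 members had an adjusted p under 0.05, where 0% of all genes were called and the smallest adjusted p of any gene was 0.759. At an unadjusted p under 0.05, 2 members were higher in the libraries labelled KO, Eif3k and Eef1e1, and 0 were lower, against 1.92% of all genes higher and 3.52% lower. In the authors' deposited table the kept transcripts of the same 2 genes had q under 0.05, both higher, and those of the other members did not, where 1.24% of all kept transcripts were higher and 3.23% lower at that threshold. Of the 4902 genes tested with a mean of at least 1000, 130 (2.65%) were higher and 32 lower.

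As a group the factors were close to level. Their median log2 difference was 0.10, with quartiles of -0.03 and 0.30, while the median over all genes tested was -0.09 with quartiles of -0.98 and 0.37. Groups are called separated upward where both libraries labelled KO exceeded the higher WT library, and separated downward where both were under the lower one. Of the 59, 15 (25.4%) were separated upward, where 14.3% of all genes were, and 7 (11.9%) downward, where 21.4% of all genes were. Those shares depend on level: among the 36 members with a mean of at least 1000, a limit set after the values were seen, 10 (27.8%) were separated upward and 3 (8.33%) downward, where 25% and 11.2% of all genes at that level were. The share separated upward is thus near that of other abundant genes. The median log2 difference of those 36 members was 0.11, and that of all genes at their level was 0.08. It was -0.26 for all genes under that level. Of the 23 members under that mean, 21.7% were separated upward and 17.4% downward, where 11.5% and 24.2% of all genes under it were. These 2 sets are not matched for level, as the lowest mean was 42.0 among the members and 11.6 among all genes. With a mean of at least 100 asked for, 25% of 56 members were separated upward and 12.5% downward, where 17.7% and 17.2% of all genes were. Of all listed genes 20.3% and 19.8% stood at 0 in the libraries labelled KO, against 14.1% and 13.1% in WT, and the part of this in the all-gene shares was not tested. By library, the median deviation of the factors from their own 4-library mean was -0.03 in KO 1 and 0.17 in KO 2, against -0.13 in WT 1 and 0.03 in WT 2, so KO 1 lay between the WT libraries. KO 2 was also the deepest library and WT 1 the shallowest, and the part of depth in these medians was not tested. Without KO 2 the median difference was 0.0095 and without WT 1 it was 0.01.

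**Figure D1:**
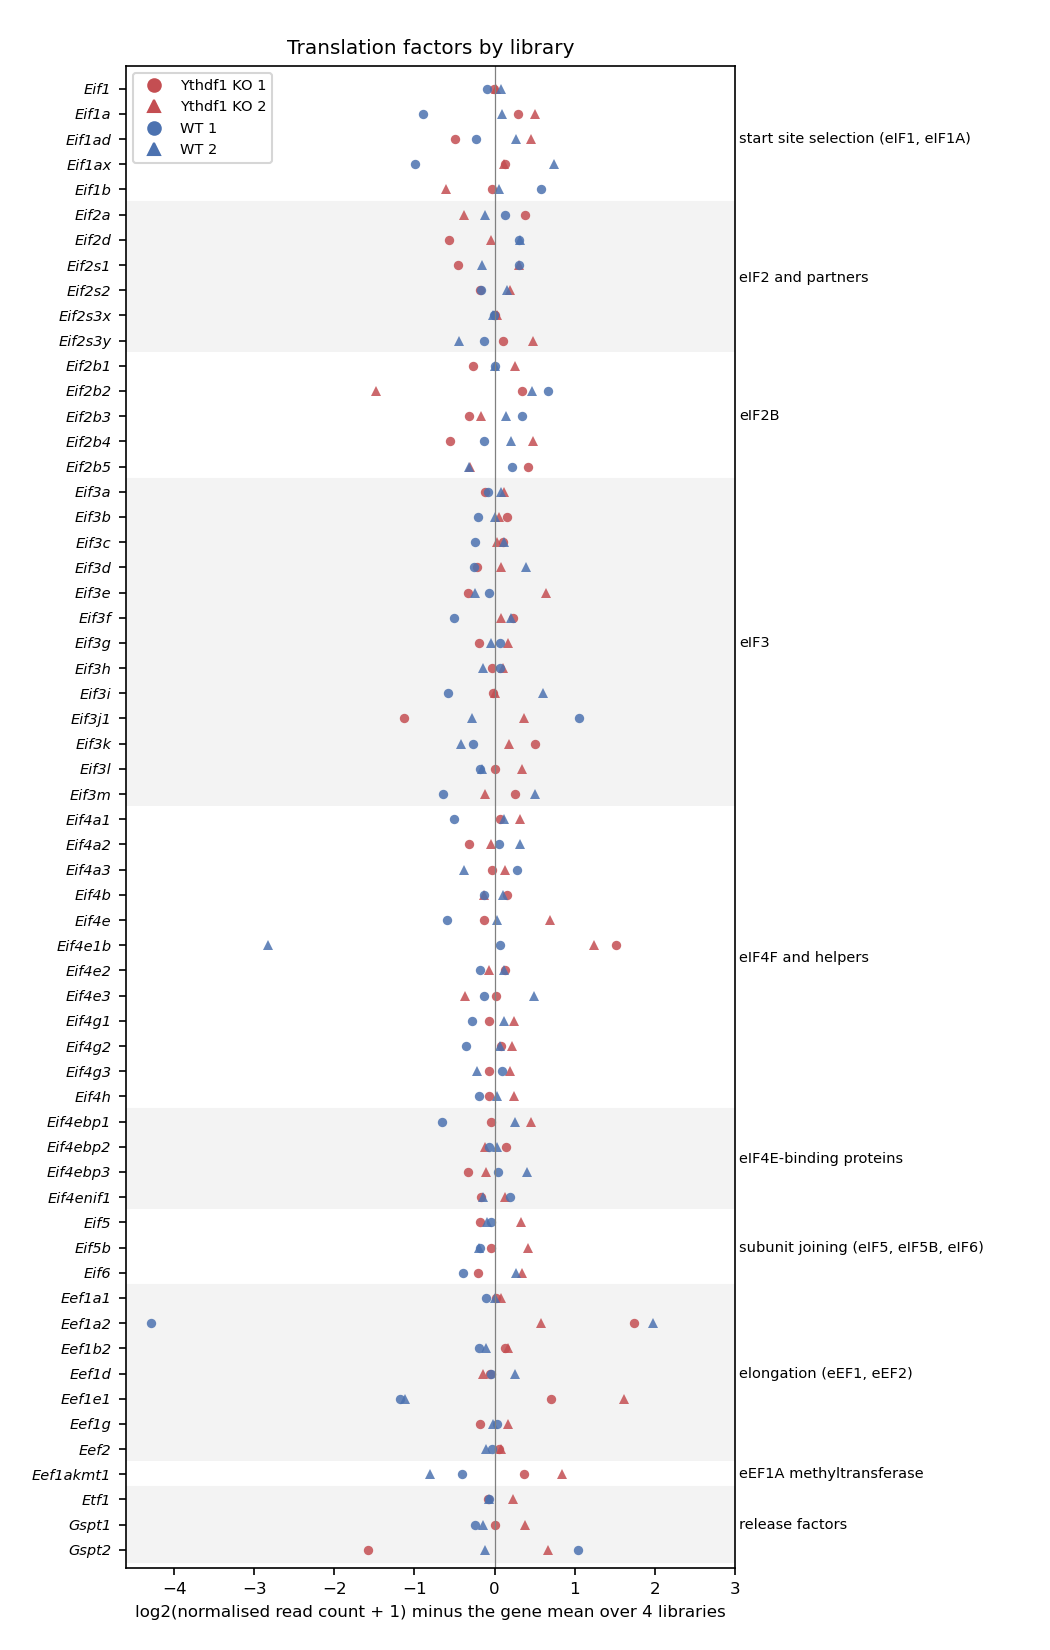
Each row is a translation factor, each point a library: log2(normalised read count + 1) minus the gene's mean over the 4 libraries on the horizontal axis, red for libraries labelled Ythdf1 KO and blue for WT, circles for replicate 1 and triangles for replicate 2. Most factors lie within about 1 log2 unit, Eef1e1 has both red points right of both blue points, and the widest rows (Eef1a2, Eef1e1, Eif4e1b, Gspt2) are those with the lowest counts.

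The sequences upstream of 4 members are shown because these factors were separated upward and include Eif3k and Eef1e1. Each line holds the 120 bases before the annotated start, 5′ to 3′ on the gene's strand, from RefSeq on GRCm38.p6, the assembly of mm10. Capitals mark matches, on either strand, to CACGTG (the E-box that Myc and USF proteins bind), CCGGAAG (the ETS core), the palindrome bound by NRF1, ATTGG (the CCAAT box in reverse) and TATAAA (the TATA box).
Eif3k, chr7:28981889-28982008, minus strand: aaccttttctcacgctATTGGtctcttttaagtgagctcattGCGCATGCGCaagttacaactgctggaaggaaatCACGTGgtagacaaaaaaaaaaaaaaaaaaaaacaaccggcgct
Eef1e1, chr13:38659029-38659148, minus strand: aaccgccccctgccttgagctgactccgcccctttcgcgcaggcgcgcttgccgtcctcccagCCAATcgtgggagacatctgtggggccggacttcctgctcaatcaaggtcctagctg
Eif3l, chr15:79075103-79075222, plus strand: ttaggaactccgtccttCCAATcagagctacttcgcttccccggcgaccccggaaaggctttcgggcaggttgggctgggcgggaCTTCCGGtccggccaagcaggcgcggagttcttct
Eef2, chr10:81176511-81176630, plus strand: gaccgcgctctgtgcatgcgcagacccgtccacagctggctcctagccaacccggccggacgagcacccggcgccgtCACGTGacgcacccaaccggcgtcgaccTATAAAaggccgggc
The Eif3k window holds 3 of these matches and the Eef1e1 window 1, a CCAAT box. Eif3l has an ETS core and a CCAAT box, and Eef2 has an E-box upstream of a TATA box.

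Across the family the windows of 250 bases before to 50 after the start could be matched for 43 members. The ETS core was in 15 of them (34.9%), against 9.93% of all 27025 genes with a window, and the E-box in 9 (20.9%), against 8.09%. The NRF1 palindrome was in Eif3k alone of the members (2.33%), against 1.07% of all genes. CCAAT boxes were in 27.9% of members and 41.1% of all genes, TATA boxes in 11.6% and 15.7%. TGACGT, part of the cAMP response element, was in 18.6% of members and 8.37% of all genes, and the full element TGACGTCA, which contains it, in 2.33% and 2.03%. TTTCCG, which can overlap the ETS core, was in 27.9% and 10.04%. The members' windows were richer in G and C, with a median of 62.2% against 52.7% for all windows and 24.5 CG dinucleotides against 7, and the part of base composition in these shares was not tested. A run of at least 7 pyrimidines that starts with C lay within the first 50 bases of 34.9% of members and 23.4% of all genes. The 5′ terminal oligopyrimidine tract, by which mTORC1 controls the translation of many factor mRNAs, is such a run at the very 5′ end. The search took a run anywhere in those bases, so these shares do not count mRNAs with the tract. Members with an E-box had a median log2 difference of 0.17 and those without 0.05, while members with the ETS core had 0.03 and those without 0.12. With and without the pattern, the medians were 0.22 and 0.06 for the CCAAT box and 0.21 and 0.08 for the TATA box. They were 0.05 and 0.11 for TGACGT, 0.07 and 0.10 for TTTCCG, and 0.11 and 0.10 for the pyrimidine run. TGACGTCA and the NRF1 palindrome were each in only 1 member. These are descriptions of letters in a window, and none of these groups holds a called gene.

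The factors of start codon selection were uneven. Eif1, which keeps the scanning ribosome from starting at the wrong codon, stood at 3341 and 3412 in the libraries labelled KO, against 3153 and 3538 in WT. Its paralogue Eif1b stood at 257 and 172 in the libraries labelled KO, against 393 and 273 in WT, the groups just apart with a log2 difference of -0.64 ± 0.55 (SE). Eif1a, an autosomal gene for eIF1A, stood at 820 and 951 in the libraries labelled KO, against 361 and 711 in WT.
The Eif1a groups do not overlap, but the WT libraries differ from each other by more than the gap between the groups (log2 difference 0.80 ± 0.43 SE, limma-trend adjusted p = 0.76). The X-linked Eif1ax stood at 449 and 444 in the libraries labelled KO, between the WT values of 205 and 684. Eif1ad had means of 590 ± 265 in the libraries labelled KO and 584 ± 141 in WT (SD, n = 2 each).

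eIF2 is a trimer that carries initiator tRNA with GTP. Its beta subunit Eif2s2 stood at 3493 and 4543 in the libraries labelled KO, against 3516 and 4414 in WT, and its alpha subunit Eif2s1, the target of the stress kinases, at 398 and 674 against 673 and 490. Both gamma subunit genes, Eif2s3x on the X and Eif2s3y on the Y chromosome, had groups that did not overlap. For Eif2s3x the values were 1813 and 1840 in the libraries labelled KO, against 1796 and 1774 in WT, a log2 difference of 0.03 ± 0.21 (SE) whose sign turned with quantile normalisation (-0.06).
The closeness of all 4 Eif2s3x values shows that separated groups can stand for a shift of 2.33% in the mean. Eif2s3y stood at 604 and 779 in the libraries labelled KO, against 509 and 411 in WT (log2 difference 0.58 ± 0.37 SE, limma-trend adjusted p = 0.795), and its RNA was counted in all 4 libraries. All 12 of its listed transcripts, which share reads, had groups that did not overlap, with log2 differences from 0.54 to 1.03. The kept one is a variant that RefSeq lists as non-coding. For 1 of the 12, not the kept one, the authors' deposited table gave a log2 fold change of 1.03 with q = 0.0472. Eif2s3x and Eif2s3y are closely alike and could share reads as well.
Among the partners of eIF2, Eif2d, which can deliver tRNA to the ribosome without eIF2, stood at 377 and 542 in the libraries labelled KO, against 689 and 696 in WT. It was separated downward, with a log2 difference of -0.61 ± 0.38 (SE), as were all 12 of its listed transcripts, which share reads. Eif2d overlaps Rassf5 on the opposite strand over 3997 bases, and Rassf5 stood at 249 and 111 in the libraries labelled KO, against 266 and 115 in WT; strand use in the counting is unknown. Eif2a, an alternative initiation factor that is distinct from the alpha subunit of eIF2, had means of 740 ± 270 in the libraries labelled KO and 718 ± 88.2 in WT (SD, n = 2 each).

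eIF2B recharges eIF2 with GTP and is what phosphorylated eIF2 inhibits. Of its 5 subunit genes 0 were separated upward and 2 (40%) downward, beside 14.3% and 21.4% of all genes. Eif2b2, the beta subunit, stood at 414 and 116 in the libraries labelled KO, against 517 and 452 in WT, so its difference of -1.14 ± 0.69 (SE, log2) rests mainly on KO 2. Eif2b3, the gamma subunit, stood at 193 and 215 in the libraries labelled KO, against 308 and 267 in WT (log2 difference -0.49 ± 0.53 SE). That separation held for 1 of its 4 listed transcripts. The other 3 overlapped, 1 of them with a log2 difference of 0.49, and the sum of its transcripts gave -0.13.
The other subunits showed no separation. Eif2b1, the alpha subunit, stood at 846 and 1223 in the libraries labelled KO, on either side of the WT values of 1023 and 1026. Eif2b5, the catalytic epsilon subunit, stood at 811 and 487 in the libraries labelled KO, against 702 and 483 in WT, counted on a variant that RefSeq lists as non-coding. Eif2b4 had means of 781 ± 378 and 779 ± 128 (SD, n = 2 each) in the libraries labelled KO and in WT.

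eIF3 is the largest initiation factor, a scaffold on the small subunit, and its 13 listed subunit genes had a median log2 difference of 0.13, with 3 (23.1%) separated upward and 0 downward. Of all genes 14.3% were separated upward and 21.4% downward, and of those with a mean of at least 1000, 25% and 11.2%. Eif3k, a small subunit outside the conserved core, stood at 2209 and 1765 in the libraries labelled KO, against 1288 and 1165 in WT. Its groups were separated upward: the mean was 1987 ± 314 in the libraries labelled KO and 1227 ± 87.1 in WT (SD, n = 2 each), so that the ratio was 1.62. The limma-trend log2 difference was 0.69 ± 0.24 (SE), unadjusted p = 0.0294 and adjusted p = 0.759, and with any 1 library left out it lay between 0.53 and 0.85. In the authors' deposited table Eif3k had a log2 fold change of 0.70 with q = 0.0392. Its 4 transcripts, which share reads, all had separated groups.
Eif3l, which pairs with Eif3k in the complex, stood at 2529 and 3199 in the libraries labelled KO, against 2236 and 2260 in WT (log2 difference 0.34 ± 0.21 SE, limma-trend adjusted p = 0.792). Both libraries labelled KO were again the higher ones. Eif3b, a core subunit with an RNA recognition motif, stood at 4254 and 3994 in the libraries labelled KO, against 3316 and 3842 in WT.
The other 10 subunits overlapped between the groups. Eif3c, a core subunit, stood at 6673 and 6310 in the libraries labelled KO, against 5225 and 6716 in WT. Eif3a, the largest subunit, had means of 5424 ± 625 in the libraries labelled KO and 5427 ± 447 in WT (SD, n = 2 each). Eif3f stood at 5475 and 4947 in the libraries labelled KO, against 3297 and 5382 in WT, so WT 1 alone was low.
WT 1 was also the lowest library for Eif3b, Eif3c, Eif3d, Eif3i, Eif3l and Eif3m. The eIF3 median was -0.05 without WT 1 and 0.31 without WT 2, and 0.0039 without KO 2. Eif3j1, a loosely bound subunit, was the most variable, at 202 and 567 in the libraries labelled KO, against 915 and 362 in WT. Its paralogue Eif3j2 was not analysed here. The log2 differences of Eif3d, Eif3e, Eif3g, Eif3h, Eif3i and Eif3m lay between -0.13 and 0.31, and counts of Eif3e, like those of Eef1a1 and Eef2, may include reads of pseudogenes.

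**Figure D2:**
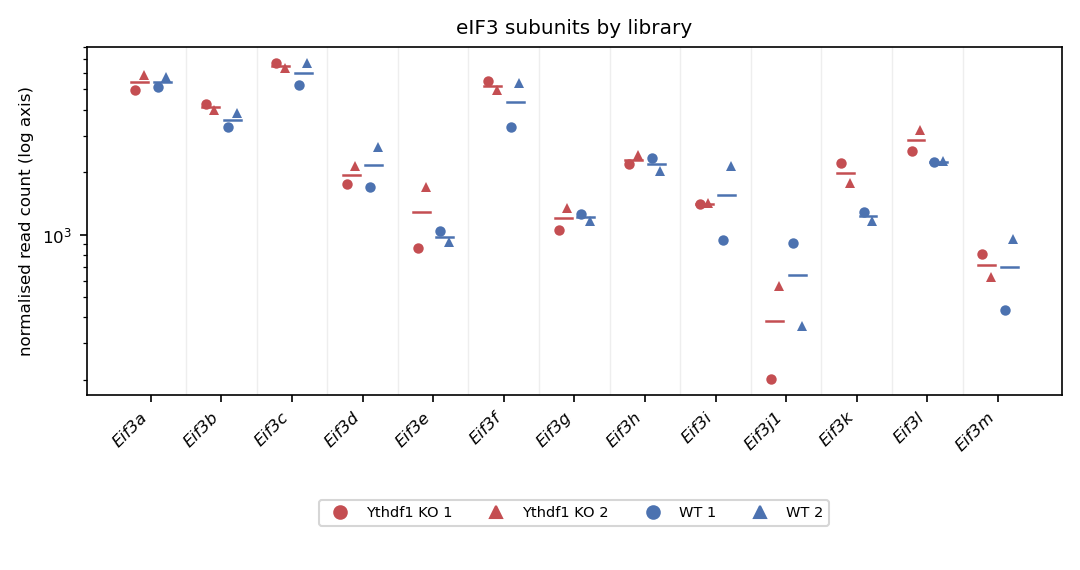
Normalised read counts (log axis) of the 13 listed eIF3 subunits, libraries labelled Ythdf1 KO in red left of WT in blue, circles for replicate 1, triangles for replicate 2 and a bar for the mean of the 2 libraries. In Eif3b, Eif3k and Eif3l both red points are above both blue points, and Eif3j1 has the widest spread within each group.

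eIF4F recognises the cap through eIF4E, holds it with the scaffold eIF4G and unwinds the leader with the helicase eIF4A. Of the 12 genes of this complex and its helpers, 2 (16.7%) were separated upward and 1 (8.33%) downward, beside 14.3% and 21.4% of all genes. Among genes with a mean of at least 1000 those shares were 25% and 11.2%. The paralogous helicases had log2 differences of opposite sign. Eif4a1 stood at 6141 and 7286 in the libraries labelled KO, against 4115 and 6310 in WT (log2 difference 0.39 ± 0.24 SE), and Eif4a2 stood at 2537 and 3065 in the libraries labelled KO, against 3290 and 3928 in WT (-0.37 ± 0.20 SE).
The Eif4a2 groups do not overlap, and all 11 of its listed transcripts, which share reads, showed that separation. For Eif4a1, KO 1 falls below WT 2. Neither passed limma-trend (adjusted p = 0.79 and 0.765), and the difference between the paralogues was not tested. Eif4a3, the helicase of the exon junction complex, stood at 1158 and 1290 in the libraries labelled KO, within the WT values of 1428 and 908.
The scaffolds were close together. Eif4g1 stood at 13575 and 16811 in the libraries labelled KO, against 11737 and 15496 in WT, and Eif4g3 at 4464 and 5321 against 4975 and 4027. Eif4g2, which encodes DAP5, a scaffold that lacks the eIF4E-binding site, stood at 12243 and 13383 in the libraries labelled KO, against 8975 and 12038 in WT. The Eif4g2 groups were separated upward, though KO 1 exceeded WT 2 only slightly (log2 difference 0.30 ± 0.17 SE, limma-trend adjusted p = 0.779).
The cap-binding gene Eif4e stood at 791 and 1403 in the libraries labelled KO, against 573 and 880 in WT, and Eif4e2, whose product 4EHP represses translation, at 968 and 842 against 782 and 958. Eif4e3 stood at 238 and 181 in the libraries labelled KO, against 213 and 329 in WT. All of these groups overlap. Eif4e1b, known as an oocyte form of eIF4E, was counted low on a variant listed as non-coding, with 122 and 100.9 in the libraries labelled KO and 44.0 and 5.05 in WT, and was named for its separated groups after its values were seen. The helpers Eif4b and Eif4h, which aid the helicase, had log2 differences of 0.02 ± 0.17 and 0.17 ± 0.18 (SE).

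The eIF4E-binding proteins compete with eIF4G for eIF4E when mTORC1 is inactive. Eif4ebp1 stood at 334 and 475 in the libraries labelled KO, against 219 and 411 in WT, and Eif4ebp2 at 6266 and 5222 against 5408 and 5800. Eif4ebp3 stood at 1186 and 1382 in the libraries labelled KO, against 1531 and 1974 in WT. Only for Eif4ebp3 of these 3 did the groups not overlap, with the libraries labelled KO lower (log2 difference -0.44 ± 0.26 SE, limma-trend adjusted p = 0.78). Eif4enif1, which carries eIF4E to the nucleus and to P-bodies, had means of 1540 ± 231 and 1590 ± 256 (SD, n = 2 each) in the libraries labelled KO and in WT.

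The factors of subunit joining all had log2 differences above 0. Eif5, which stimulates GTP hydrolysis by eIF2, stood at 3281 and 4679 in the libraries labelled KO, on either side of the WT values of 3601 and 3505. Eif5b, the GTPase of the joining step, stood at 1668 and 2303 in the libraries labelled KO, against 1523 and 1501 in WT. Eif6, which keeps free large subunits from joining too early, stood at 2910 and 4273 in the libraries labelled KO, against 2546 and 4026 in WT.
Only the Eif5b groups are apart (log2 difference 0.37 ± 0.25 SE, limma-trend adjusted p = 0.809). In each of these genes KO 2 was the highest library. Eif5b overlaps Rev1 on the opposite strand over 2794 bases, and Rev1 stood at 252 and 964 in the libraries labelled KO, against 287 and 430 in WT, so it too was highest in KO 2.

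Of the 7 elongation genes, 4 (57.1%) were separated upward and 1 (14.3%) downward, with the abundant ones differing little in size. Of all genes 14.3% and 21.4% were, and of those with a mean of at least 1000, 25% and 11.2%. The 4 include Eef1e1, which is no elongation factor in the strict sense. Eef1a1, which encodes the main eEF1A of most tissues, stood at 88725 and 92992 in the libraries labelled KO, against 81171 and 88248 in WT. Eef2 stood at 69079 and 70794 in the libraries labelled KO, against 65385 and 62160 in WT. Eef1b2, a subunit of the exchange complex that recharges eEF1A, stood at 3013 and 3098 in the libraries labelled KO, against 2412 and 2569 in WT.
These 3 genes were thus 7.26%, 9.67% and 22.7% higher in mean, with log2 differences of 0.10 ± 0.08, 0.13 ± 0.08 and 0.30 ± 0.19 (SE) and limma-trend adjusted p = 0.819, 0.792 and 0.793. KO 1 exceeded WT 2 by little for Eef1a1. The other subunits of the exchange complex did not share this: Eef1g had means of 4897 ± 845 in the libraries labelled KO and 4895 ± 105 in WT (SD, n = 2 each), and Eef1d 1270 ± 56.4 and 1477 ± 211. Eef1d was lower in both libraries labelled KO on the kept transcript and on 12 of its 22 transcripts in all, which share reads.
Eef1e1 had the largest ratio of the members. Its product, also called AIMP3, is an auxiliary protein of the multi-tRNA synthetase complex rather than an elongation factor in the strict sense. It stood at 177 and 335 in the libraries labelled KO, against 47.3 and 49.5 in WT. In normalised read counts the libraries labelled KO differed from each other by more than KO 1 differed from either WT library. On the log2 scale they differed from each other by less than that. The mean was 256 ± 111 in the libraries labelled KO and 48.4 ± 1.51 in WT (SD, n = 2 each), so that the ratio was 5.29. The limma-trend log2 difference was 2.31 ± 0.86 (SE), unadjusted p = 0.0338 and adjusted p = 0.759, and it stayed between 1.85 and 2.77 with any 1 library left out. In the authors' deposited table Eef1e1 had a log2 fold change of 2.40 with q = 0.0394.
Eef1a2, known as the eEF1A of muscle and nerve, was near the floor, with 64.0 and 28.1 in the libraries labelled KO and a listed 0 and 75.7 in WT. No order between the groups can be read from it. Eef1akmt1, which methylates a lysine of eEF1A, stood at 222 and 308 in the libraries labelled KO, against 128 and 97.9 in WT, so that both libraries labelled KO were the higher ones (log2 difference 1.21 ± 0.65 SE, limma-trend adjusted p = 0.76).

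**Figure D3:**
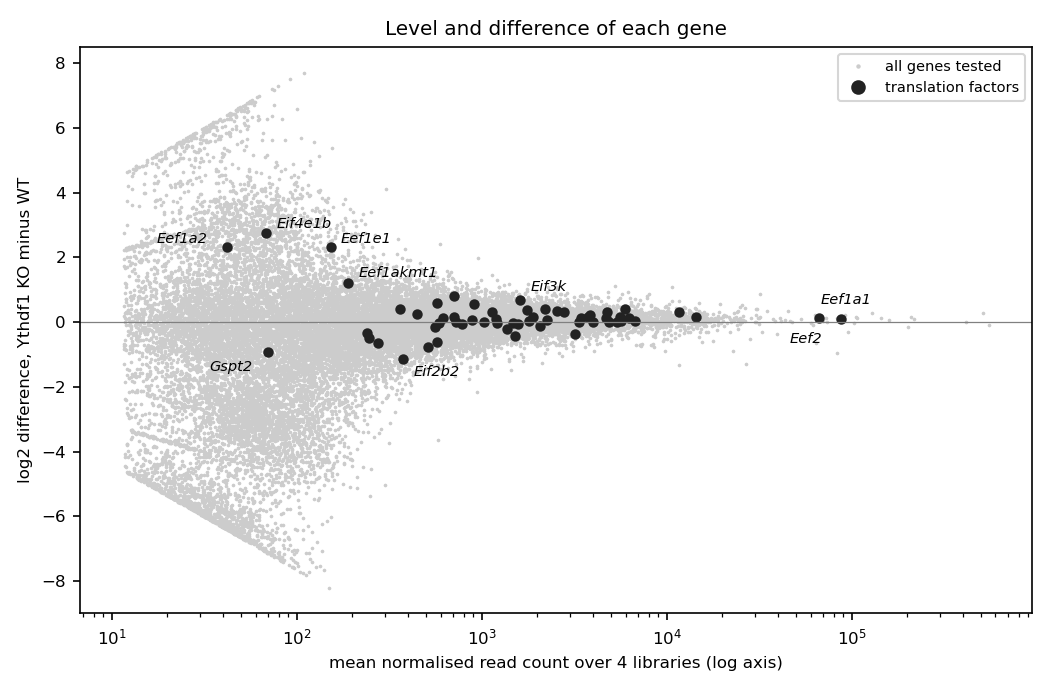
Mean normalised read count over the 4 libraries (log axis) against the log2 difference, Ythdf1 KO minus WT, for all 23116 genes tested (grey) and the 59 translation factors (black). The factors narrow toward 0 as counts grow, from Eif4e1b at 2.76 and Eef1e1 at 2.31 to Eef1a1 at 0.10, and lie within the grey cloud at their level.

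Of the release factors, Etf1, which encodes the stop-codon reader eRF1, stood at 1774 and 2209 in the libraries labelled KO, against 1790 and 1787 in WT. Gspt1, which encodes the GTPase eRF3a, stood at 2186 and 2821 in the libraries labelled KO, against 1826 and 1972 in WT, separated upward (log2 difference 0.39 ± 0.23 SE, limma-trend adjusted p = 0.779). Its X-linked paralogue Gspt2, an intronless gene, was low and scattered, with 18.4 and 91.0 in the libraries labelled KO and 118 and 52.5 in WT.

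Genes related to translation control, regulators of the factors among them, were read from a separate list of 46 entries, of which 45 were listed. None passed limma-trend, 14 of the 45 were separated upward and 5 downward, and the median log2 difference was 0.16. Of all genes 14.3% and 21.4% were separated, and of those with a mean of at least 1000, 25% and 11.2%. The means of the listed genes ran from 129 to 21737. At an unadjusted p under 0.05, which 1.92% of all genes met upward and 3.52% downward, there were 4, all higher: Eif2ak2, Eif2ak3, Rps6kb1 and Pelo. Eif2ak2, the double-stranded RNA kinase PKR that phosphorylates eIF2, stood at 1758 and 1470 in the libraries labelled KO, against 813 and 878 in WT. It was separated by more than the spread within either group, with a log2 difference of 0.93 ± 0.26 (SE) and a limma-trend adjusted p = 0.759, and the authors' deposited table gave it q = 0.00362.
Eif2ak3, the kinase PERK of the endoplasmic reticulum, stood at 1898 and 1929 in the libraries labelled KO, against 1113 and 1348 in WT. Rps6kb1, the S6 kinase downstream of mTORC1, stood at 921 and 748 in the libraries labelled KO, against 277 and 497 in WT. These kinases act on eIF2 or on the cap-binding machinery through phosphorylation, which RNA levels do not report.

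**Figure D4:**
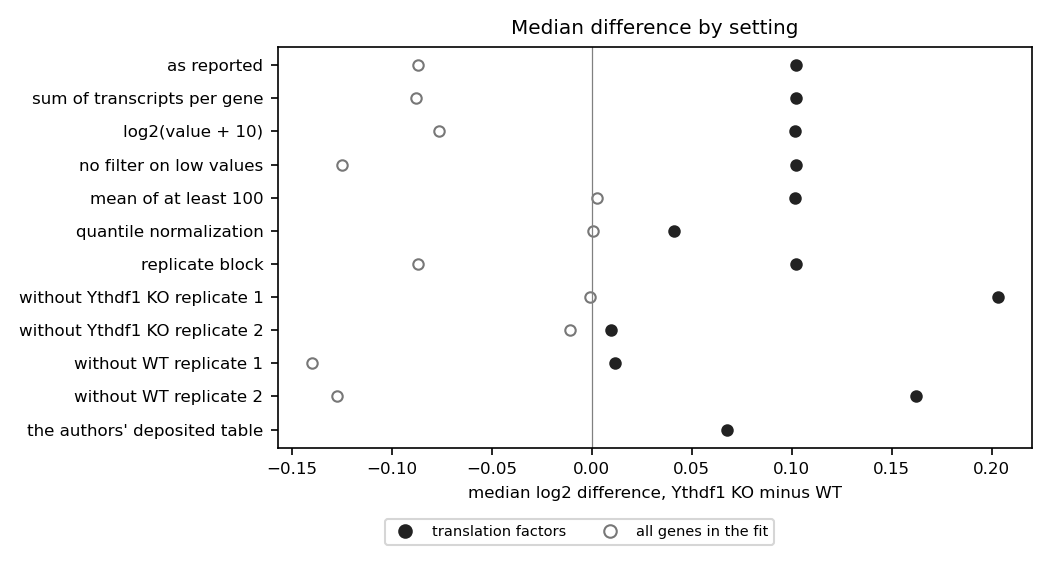
Median log2 difference, Ythdf1 KO minus WT, of the translation factors (filled) and of all genes in the same fit (open), for the reported setting and each alternative; the authors' deposited table has no open point. The filled points run from 0.0095 without KO replicate 2 to 0.20 without KO replicate 1, and every filled point is right of 0.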

How the data were processed

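Values are the normalised read counts per RefSeq transcript that the authors deposited, a signal per library that is, as read from the values, a whole multiple (within 0.001) of the lowest value above 0, so read counts were divided by a size factor per library. The deposited table also holds the authors' log2 fold change, p-value and q-value per transcript, per the file headers. Per the submitters' processing notes the build was mm10 and the tools included Bowtie2 2.2.5 and SAMtools 1.3.1; the counting program and any strand setting were not given in the sources used here. Isoforms, overlapping genes and near-identical copies may share reads. The table listed no transcript with a mean under 11.6.

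The transcript with the highest mean stood for each gene. The filter asked for 2 or more libraries at 1 or higher and left 23116 genes, all 59 members among them. The genotype label was the sole term of a robust limma-trend fit (limma 3.58.1, R 4.3.3) of log2(value + 1), with Benjamini-Hochberg adjustment over all genes, called at 0.05. On simulated data the fit was checked for its median estimated difference only, with no limit set on missed or false calls. The pseudocount understates the change of low genes, and since the difference is between mean log2 values it can be larger or smaller than the log2 ratio of the means where replicates are uneven. Values are not divided by transcript length, so they are not compared between genes. Genes named with each library's value were the most abundant of each functional group, the up to 3 with the smallest p, those with q under 0.05, those with a listed 0, and fixed paralogue pairs. Members and lists were chosen with earlier results of these data known.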

Additional observations from a re-analysis of the deposited data

How the results depend on the processing

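No translation factor was called under any limma-trend alternative. For all genes 0 were called in each setting with 4 libraries, and between 0 and 36 with 1 library left out (36 without KO 1, 2 without WT 1, 6 without WT 2), where the lone library is assumed to vary like the other group. By the kept transcripts, the authors' deposited table called 1152 genes and 2 translation factors. Separated groups were counted on 3 libraries when 1 was left out, which makes separation commoner by construction: 19 to 34 higher and 11 to 21 lower, or 32.2% to 57.6% and 18.6% to 35.6%, where 29.0% to 31.9% and 34.5% to 39.1% of all genes were. Among members with a mean of at least 1000, an alternative added after seeing the data, 10 were higher and 3 lower. The median log2 difference stayed within 1 SD of its libraries (0.13) in every setting, from 0.0095 to 0.20, and was 0.04 with quantile normalisation. Leaving out a library turned the sign of 15 members without KO 1, 7 without KO 2, 18 without WT 1 and 9 without WT 2, all with overlapping groups, since separated groups cannot turn there. Of the members with separated groups, Eif2s3x turned to -0.061 with quantile normalisation. With the replicate block, 0 members and 0 genes were called and the median was 0.10. Over 23116 genes the replicate differences of the 2 groups were not correlated (r = -0.00795). Among the factors alone, the median deviation was higher in replicate 2 than in replicate 1 in both groups. It was -0.03 in KO 1 and 0.17 in KO 2, and -0.13 in WT 1 and 0.03 in WT 2. A pairing by replicate number was not tested for the factors alone. The planned edgeR and DESeq2 alternatives were not run.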

Other observations

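Some translation factor genes carry small nucleolar RNAs (snoRNAs) in the same span and on the same strand, and these guide RNAs are released from introns of their host. Snora81, within Eif4a2, stood at 104 and 53.8 in the libraries labelled KO, against 49.6 and 46.4 in WT, while its host was lower in both libraries labelled KO than in either WT library. Snora28, within Eif5, stood at 158 and 242 in the libraries labelled KO, against 145 and 37.4 in WT. Snora41, within Eef1b2, was listed at 0 and 0.827 in the libraries labelled KO and at 54.1 and 0 in WT, so WT 1 alone had more than about 1 read. These values are low, and the differences between snoRNAs and hosts were not tested.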
